A study of Mus musculus with 18 samples.

Results

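The expression of 8 genes of arginine and polyamine metabolism was followed in sorted skin cells of the DKO* psoriasis-like mouse model. The genes were taken by symbol from the table of 23951 gene symbols, which holds all 8 of them. They are Ass1 and Asl, Nos2, Odc1 and Oaz1, Srm and Sms, and Sat1. In brief, Ass1 was higher in every diseased population than in control mice. Sat1 and Srm passed the test as higher in 3 of the 4 diseased populations, Sms in both basal keratinocyte populations and neither bulge population, and Odc1 passed the test in none.

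RNA-seq covered 18 libraries, 1 for each of 3 mice in 6 cell populations of ear skin. DKO* mice are homozygous for floxed JunB and floxed c-Jun (JunB f/f, c-Jun f/f) and carry the K5-Cre-ERT transgene, in which tamoxifen deletes both genes in cells that use the K5 promoter of basal keratinocytes, and they carry the mT/mG reporter, in which membrane GFP replaces membrane Tomato once Cre has acted. Control mice (Co) also carried the Cre under the K5 promoter and mT/mG but were wild-type or heterozygous for the floxed alleles. All mice were 8 weeks old, of both sexes and of mixed background, were given 4 daily injections of 2 mg tamoxifen, and were sampled at day 7. Bulge hair follicle stem cells (HF-SC, CD34+) and basal keratinocytes (b-KC, CD34-) were sorted as live CD45- cells with high CD49f, and in DKO* mice as mutant GFP and non-mutant Tom fractions. The 4 DKO* populations come from the same 3 mice (814, 815 and 817) and both Co populations from the same 3 mice (810, 825 and 828), so the diseased populations are not independent of each other. GFP marks that Cre acted on the reporter, which is not by itself a measure of both deletions. Jun was at 983 ± 131 FPKM in Co, 62.8 ± 29.6 in GFP and 418 ± 170.0 in Tom bulge cells (mean ± SD, n = 3), and in b-KC at 952 ± 66.3, 49.6 ± 18.2 and 264 ± 123. Junb followed the same order, with 447 ± 14.1, 62.5 ± 20.9 and 310.4 ± 80.2 FPKM in HF-SC and 749 ± 19.2, 59.6 ± 19.4 and 322 ± 100.2 in b-KC.

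Arginine stands at the head of several routes. Argininosuccinate synthase and lyase (Ass1 and Asl) rebuild arginine from citrulline, nitric oxide synthases spend it on nitric oxide, and it is a source of the ornithine from which polyamines are made. Ornithine decarboxylase (Odc1), held in check by antizyme (Oaz1), turns ornithine into putrescine, which spermidine synthase (Srm) and spermine synthase (Sms) extend to spermidine and spermine. Spermidine/spermine acetyltransferase (Sat1) starts the way back by marking polyamines for oxidation or export. Dividing epithelial cells need polyamines, and raised polyamine levels are known from psoriatic skin.

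Because the deleted genes encode AP-1 proteins, the sequence in front of the genes was searched for the letters such proteins bind. The E-box, which is not an AP-1 motif, was searched as well. RefSeq start sites (GRCm38.p6) matched 5 of the 8 genes, Ass1, Odc1, Oaz1, Sms and Sat1, and no entry was found for Nos2, Asl and Srm. In the 250 bases before each start, TGANTCA (AP-1), TGACGTCA (CRE) and CACGTG (E-box) were searched, all of them palindromes that read the same on both strands. The 5 genes with their 6 starts held no TGANTCA and no TGACGTCA, letters that 6.75% and 1.55% of all 32851 promoter windows hold. CACGTG, in 6.02% of all windows, occurred in front of Ass1 and of 1 of the 2 Sms starts. These matches are letters and not measured binding. The windows of Ass1 (chr2:31470020-31470269, plus strand), Sat1 (chrX:155216450-155216699, minus strand) and Odc1 (chr12:17544623-17544872, plus strand) are shown because the first 2 genes had the largest changes from control that passed the test among the 8 and Odc1 passed in no comparison. They are written 5′ to 3′ on the gene's strand with the E-box match in capitals, which in Ass1 begins 36 bases before the start.
Ass1: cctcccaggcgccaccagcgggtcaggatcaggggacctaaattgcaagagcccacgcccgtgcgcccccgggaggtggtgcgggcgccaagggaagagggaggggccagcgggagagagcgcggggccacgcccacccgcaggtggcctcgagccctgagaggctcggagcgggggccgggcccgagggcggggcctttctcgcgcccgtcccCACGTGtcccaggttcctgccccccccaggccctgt
Sat1: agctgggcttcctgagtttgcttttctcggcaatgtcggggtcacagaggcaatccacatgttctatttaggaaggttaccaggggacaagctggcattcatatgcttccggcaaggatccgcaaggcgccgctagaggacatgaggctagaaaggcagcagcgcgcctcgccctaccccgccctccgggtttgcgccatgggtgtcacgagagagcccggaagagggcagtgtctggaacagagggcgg
Odc1: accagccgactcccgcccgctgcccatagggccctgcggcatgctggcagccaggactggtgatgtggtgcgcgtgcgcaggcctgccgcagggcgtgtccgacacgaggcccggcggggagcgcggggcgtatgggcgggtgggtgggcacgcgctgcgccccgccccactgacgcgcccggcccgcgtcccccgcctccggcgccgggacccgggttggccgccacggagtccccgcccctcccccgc

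Expression was measured as FPKM, which is per transcript length and library size, so levels of different genes can be set side by side. Low values of genes with a single annotated transcript fell on whole multiples of a step that implied 16600000 to 26400000 reads per library, and 3 reads on a 1 kb transcript were worth 0.114 to 0.181 FPKM. Groups were compared with limma on log2(FPKM + 1) over the 12751 genes that reached 1 FPKM in at least 3 libraries, and a gene passed at a Benjamini-Hochberg adjusted p under 0.01. Fold changes on this scale understate the change of genes with low FPKM. Of the 8 genes, 7 were tested, since Nos2 did not reach 1 FPKM in any library. In bulk samples of sorted cells, fewer cells of a type and less RNA per cell cannot be told apart.

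The sort labels were checked against marker genes. In the following, mutant means the GFP fraction, non-mutant the Tom fraction and control the Co cells. Cd34, the marker of the gate, was at 640 to 889 FPKM in HF-SC Co, 161 to 228 in HF-SC GFP and 260 to 319 in HF-SC Tom, and at most 2.53 in any b-KC library. The summed FPKM of 10 endothelial genes was 485 to 1452 in HF-SC Tom, 55.8 to 94.5 in HF-SC Co and 1.39 to 33.6 in HF-SC GFP, and at most 6.01 in any b-KC library. For 18 leukocyte and myeloid genes the sum was 9.84 to 12.5 in control, 21.9 to 61.4 in mutant and 49.7 to 111 in non-mutant bulge cells, and in b-KC it was 4.21 to 4.97 in Co, 16.9 to 21.4 in GFP and 18.6 to 20.4 in Tom. In HF-SC Tom, Cd14 alone made up 90.2, 79.4 and 13.5 of sums of 111, 99.5 and 49.7, against 3.68, 3.01 and 12.4 of 25.3, 21.9 and 61.4 in HF-SC GFP. Of the 18 genes, 8 were above Co in every library of HF-SC GFP, 7 of HF-SC Tom, 14 of b-KC GFP and 6 of b-KC Tom. The share of all genes above or below Co in every library was not counted, for this list or the other marker lists. The pan-leukocyte marker Ptprc did not exceed 0.946 FPKM in any library. Proliferation genes summed to 25.3 to 32.2 in HF-SC Co against 167 to 266 in GFP and 270.4 to 322 in Tom, and to 179 to 189 in b-KC Co against 283 to 443 in GFP and 484 to 535 in Tom. Suprabasal keratinocyte genes summed to 765 to 976 in control, 1741 to 3512 in mutant and 1666 to 2110 in non-mutant bulge cells, and to 6938 to 8633, 4904 to 6928 and 3883 to 6984 in b-KC Co, GFP and Tom. Of these 6 genes, 4 were above and 0 below Co in every HF-SC GFP library and 3 above and 2 below in every HF-SC Tom library, while 3 were below Co in every b-KC GFP library and 4 in every b-KC Tom library. Bulge genes summed to 13702 and 14103 in 2 of the HF-SC Co libraries and to 2540 in the other, where Krt15 is listed at 0, against 3964 to 6227 in GFP and 3778 to 6871 in Tom, and to 3194 to 3351, 668 to 1478 and 401 to 1239 in b-KC Co, GFP and Tom. Of these 9 genes, Cd34 among them, 8 were below Co in every library of HF-SC GFP and of HF-SC Tom, and 7 in every library of b-KC GFP and of b-KC Tom. Basal keratinocyte genes summed to 6930 to 7777 in HF-SC Co, 7299 to 8231 in GFP and 9010 to 10919 in Tom, and to 16068 to 17362, 6305 to 10369 and 5780 to 16073 in b-KC Co, GFP and Tom, with Krt14 listed at 0 in 1 b-KC GFP and 2 b-KC Tom libraries. Of these 6 genes, 3 were below and 2 above Co in every HF-SC GFP library and 3 below and 1 above in every HF-SC Tom library, while 4 were below Co in every b-KC GFP library and 2 in every b-KC Tom library. Fibroblast genes reached 120.5 in HF-SC and 6.16 in b-KC, and melanocyte genes 17.7 and 5.42. The part of these lists in the values below was not tested.

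The levels of the 8 genes spanned several orders of magnitude. Sat1 was the most abundant, with a median of 464 FPKM over the 18 libraries, followed by Oaz1 at 286, Odc1 at 98.9 and Srm at 88.5. Ass1 (25.8), Asl (18.7) and Sms (15.8) formed a middle range. Nos2 was near 0.

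**Figure D1:**
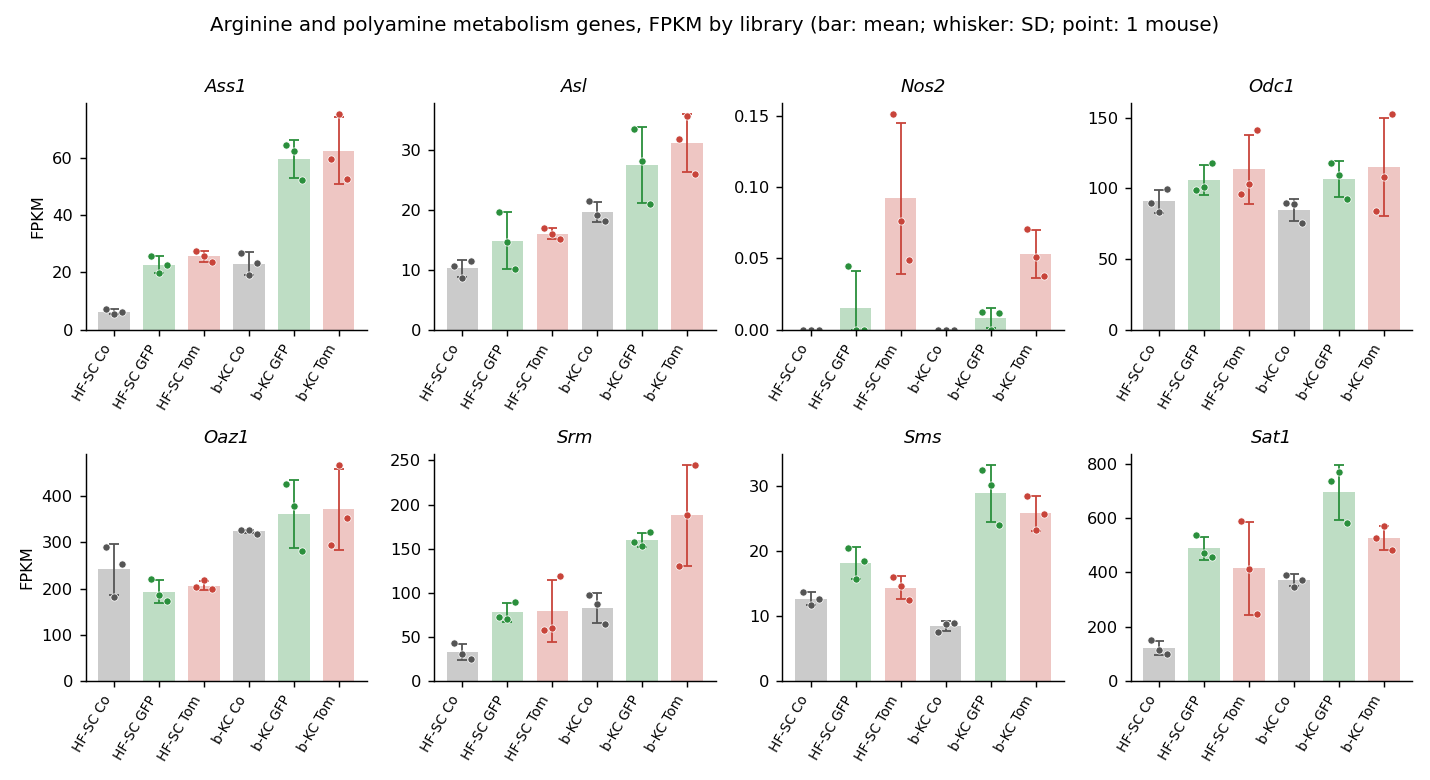
FPKM (linear axes from 0, a separate scale for each gene) of the 8 genes in the 6 cell populations, with bars for the mean of 3 mice, whiskers for the SD and points for single libraries. Ass1 rises from 6.31 in HF-SC Co to 22.8 and 25.7 in the GFP and Tom fractions and from 23.1 in b-KC Co to 59.8 and 62.6, while Odc1 stays between 75.6 and 153 in all libraries.

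Against Co, 3 of these genes were higher and 0 lower in each diseased population. In HF-SC GFP, 3 of 7 passed as higher (Ass1, Srm and Sat1) and 0 as lower, where 13.0% of all tested genes passed as higher and 12.3% as lower. In HF-SC Tom, 3 of 7 were higher (Ass1, Srm and Sat1) and 0 lower, against 15.7% and 13.9% of all genes. In b-KC GFP, 3 of 7 were higher (Ass1, Sms and Sat1) and 0 lower, against 12.5% and 12.0%. In b-KC Tom, 3 of 7 were higher (Ass1, Srm and Sms) and 0 lower, against 15.4% and 15.3%. The median log2 fold change of the 7 genes was 0.48, 0.61, 0.90 and 0.63 in these 4 comparisons, and that of all tested genes lay between -0.05 and -0.02. Each cell type's GFP and Tom fractions were set against the same Co libraries.

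**Figure D2:**
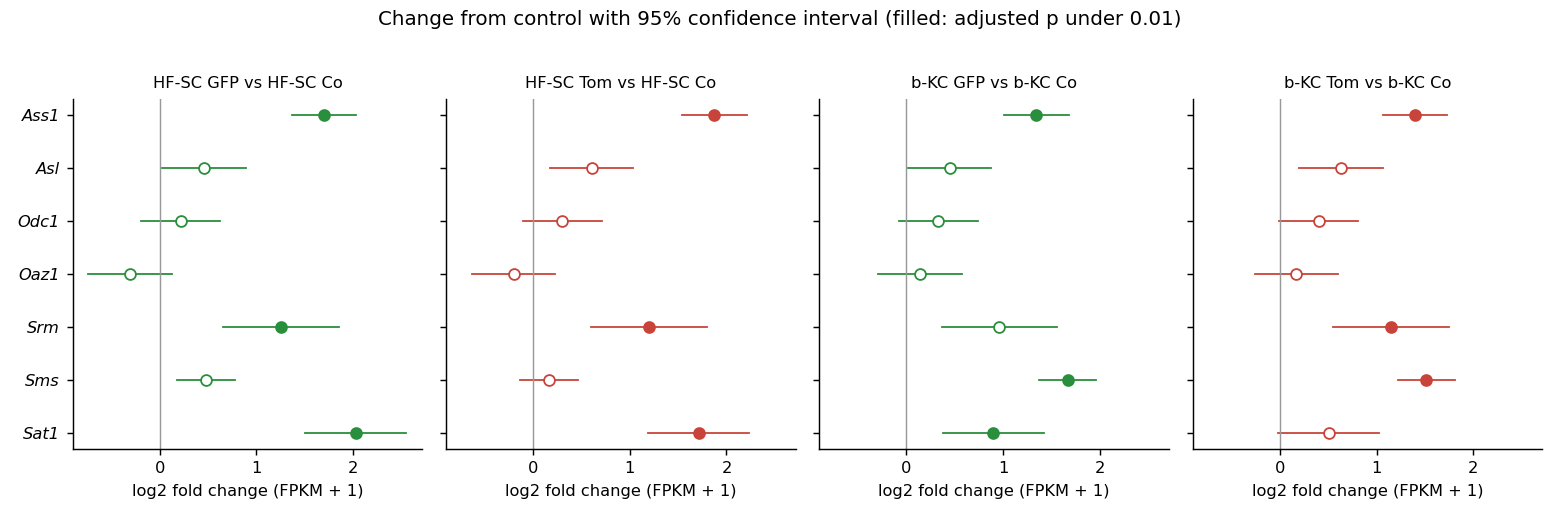
Log2 fold change from Co on the log2(FPKM + 1) scale (horizontal axis) for the 7 tested genes in the 4 diseased populations, GFP in green and Tom in red, with the 95% confidence interval as a line and a filled point where the adjusted p is under 0.01. Ass1 is filled in all 4 panels with values of 1.70, 1.88, 1.34 and 1.40, and Sms is filled in the b-KC panels alone.

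Ass1, on chromosome 2 (31325727 to 31376192, plus strand, NCBIM37), encodes the rate-limiting step in the rebuilding of arginine from citrulline. In HF-SC, the control libraries stood at 7.24, 5.58 and 6.11 FPKM, the GFP libraries at 25.8, 19.9 and 22.6 and the Tom libraries at 27.6, 25.9 and 23.8. In b-KC, controls stood at 26.9, 19.1 and 23.2 FPKM, mutant cells at 64.6, 62.4 and 52.3 and non-mutant cells at 59.6, 75.4 and 52.8. Every diseased library lay above every Co library of its cell type. The mean was 3.61 times that of Co in HF-SC GFP and 4.08 times in HF-SC Tom, and 2.59 and 2.71 times in b-KC GFP and b-KC Tom. The log2 fold changes were 1.70 (SE 0.16, adjusted p = 9.08e-07), 1.88 (adjusted p = 2.63e-07), 1.34 (adjusted p = 2.18e-05) and 1.40 (adjusted p = 8.58e-06). The calls held in every alternative fit, while a limit of 2 on the absolute log2 fold change would end all 4. In the order of levels, HF-SC Co came lowest, HF-SC GFP, b-KC Co and HF-SC Tom overlapped with each other, and the overlapping b-KC GFP and Tom libraries were highest.

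Asl (chromosome 5, 130487128 to 130501002, minus strand) encodes the next enzyme, which releases arginine. Among HF-SC libraries Asl reached 10.7, 8.65 and 11.4 FPKM in controls, 19.7, 14.6 and 10.2 in mutant cells and 16.9, 16.0 and 15.1 in non-mutant cells. Among b-KC libraries it reached 21.4, 19.2 and 18.2 FPKM in controls, 33.4, 28.1 and 20.9 in mutant cells and 31.8, 35.6 and 25.9 in non-mutant cells. The Tom libraries did not overlap with Co in either cell type, whereas the GFP library of mouse 817 fell among the Co values in both. None of the 4 comparisons passed for Asl, with log2 fold changes of 0.46 (adjusted p = 0.0873) for mutant and 0.61 (0.0246) for non-mutant bulge cells, and of 0.45 (0.0891) and 0.63 (0.0190) for mutant and non-mutant basal keratinocytes. Without mouse 817, all 4 passed, with 0.68 (adjusted p = 0.00175), 0.64 (0.00226), 0.62 (0.00277) and 0.75 (0.000783), and b-KC Tom also passed when only the groups compared were fitted (adjusted p = 0.00639).

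Nos2 (chromosome 11, 78734289 to 78773756, plus strand), the inducible nitric oxide synthase, was barely detected. It was listed at 0 in all 6 Co libraries and in 9 of the 18 libraries, and reached at most 0.0449 FPKM in GFP libraries. HF-SC Tom had 0.152, 0.0763 and 0.0486 FPKM and b-KC Tom 0.0709, 0.0508 and 0.0380. On its transcript of 4192 bases, 3 reads were worth 0.0271 to 0.0431 FPKM, and the highest library held about 10.5 reads. The 6 Tom libraries were each above the floor of their own depth, the lowest with about 3.2 implied reads. The HF-SC GFP library at 0.0449 FPKM, with about 4.2 implied reads, was above its floor as well. No test and no fold is given against Co, where Nos2 was at 0.

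Odc1 and Oaz1, which set the entry into polyamine synthesis, passed in none of the 9 comparisons. Odc1 (chromosome 12, 17551679 to 17558308, plus strand) measured 89.6, 83.4 and 99.3 FPKM in control bulge cells, 98.6, 101 and 118 in mutant bulge cells and 96.3, 103 and 142 in non-mutant bulge cells. Odc1 measured 89.4, 88.7 and 75.6 FPKM in control b-KC, 118, 109.6 and 92.8 in mutant b-KC and 84.0, 108 and 153 in non-mutant b-KC. Only b-KC GFP did not overlap with its Co libraries. The log2 fold changes were 0.22, 0.30, 0.33 and 0.40, and their 95% confidence intervals ran from -0.19 at the lowest to 0.81 at the highest, so a rise of more than 0.81 was outside all 4 intervals. Oaz1 (chromosome 10, 80289401 to 80292035, plus strand), whose protein sends Odc1 to degradation and is itself made by a frameshift that RNA levels do not show, ranged from 173 to 468 FPKM, with changes of -0.30, -0.20, 0.14 and 0.17 (adjusted p 0.252 to 0.609). For both genes, a p that misses the threshold does not show equal levels.

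Srm (chromosome 4, 147965612 to 147969102, plus strand), spermidine synthase, was higher in every diseased library than in the Co libraries of its cell type. Bulge libraries held 43.2, 29.8 and 24.7 FPKM in controls, 72.8, 70.1 and 89.8 in mutant and 57.5, 59.3 and 119 in non-mutant cells. Basal keratinocyte libraries held 97.3, 87.2 and 64.0 FPKM in controls, 158, 153 and 168 in mutant and 130.3, 189 and 245 in non-mutant cells. Srm rose by 1.26 on the log2 scale in HF-SC GFP (SE 0.28, adjusted p = 0.00243), by 1.20 in HF-SC Tom (adjusted p = 0.00289) and by 1.15 in b-KC Tom (adjusted p = 0.00391). In b-KC GFP the value of 0.96 missed the threshold (adjusted p = 0.0135) but passed with the mouse as a random block (adjusted p = 0.00754), without mouse 817 (0.00292) and with only the groups compared (0.00608). Each of the 3 calls was lost without mouse 825, 828 or 815 (adjusted p 0.0126 to 0.0325), and the HF-SC Tom call with only the groups compared (adjusted p = 0.0302). The summed proliferation genes, given above, were also higher than Co in every diseased library, with 6 of the 6 genes above Co in every library of HF-SC GFP, HF-SC Tom and b-KC Tom and 5 of 6 in b-KC GFP.

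Sms (chromosome X, 153881787 to 153930219, minus strand), spermine synthase, passed the test in both b-KC populations and in neither HF-SC population. Control b-KC had 7.49, 8.76 and 8.88 FPKM, mutant b-KC 32.6, 30.2 and 24.1 and non-mutant b-KC 28.5, 23.2 and 25.7, means 3.46 and 3.08 times that of controls. Control HF-SC had 13.7, 11.7 and 12.6 FPKM, mutant HF-SC 20.4, 15.7 and 18.4 and non-mutant HF-SC 16.0, 14.6 and 12.5. The disease libraries stood clear of the controls in b-KC and, in HF-SC, for the mutant cells only. The rises of 1.67 in b-KC GFP (SE 0.14, adjusted p = 1.06e-06) and 1.52 in b-KC Tom (adjusted p = 1.48e-06) held in every alternative fit, though both lie under a limit of 2 on the absolute log2 fold change. In HF-SC the values were 0.48 in GFP (95% confidence interval 0.18 to 0.78, adjusted p = 0.0127) and 0.16 in Tom (adjusted p = 0.363). The response in HF-SC was smaller than in b-KC by 1.19 on the log2 scale for GFP (difference -1.19, SE 0.20, adjusted p = 0.00116) and by 1.35 for Tom (difference -1.35, adjusted p = 0.000311), where 5.21% and 8.05% of all tested genes passed in either direction. The GFP difference did not pass without mouse 810 (-1.06, adjusted p = 0.0145) or 815 (-1.05, adjusted p = 0.0343). In the order of levels b-KC Co was lowest, the HF-SC groups overlapped in neighbouring pairs, and the b-KC GFP and Tom libraries, which overlapped, were highest.

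The RNA ratio of the 2 synthases shifted accordingly. Srm was 7.20 to 13.0 times Sms in b-KC Co and 4.85 to 6.99 times in b-KC GFP, with no overlap, and 4.57 to 9.50 times in b-KC Tom, which overlapped. In HF-SC the ratio was 1.96 to 3.14 in Co and higher in every GFP (3.56 to 4.87) and Tom library (3.60 to 9.57).

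Sat1 (chromosome X, 151647675 to 151650992, minus strand), the enzyme that opens polyamine breakdown and is itself induced by polyamines, had the largest log2 fold change from Co of the group that passed, while the ratio of means was largest for Ass1 in HF-SC Tom (4.08). Sat1 went from 149, 114 and 98.6 FPKM in control bulge cells to 538, 472 and 457 in mutant and 589, 412 and 246 in non-mutant bulge cells. Control basal keratinocytes had 392, 348 and 373 FPKM, mutant ones 736, 769.9 and 581 and non-mutant ones 528, 572 and 483. All diseased libraries lay above their Co libraries. Sat1 rose by 2.03 on the log2 scale in HF-SC GFP (SE 0.25, adjusted p = 1.22e-05, ratio of means 4.06), by 1.71 in HF-SC Tom (adjusted p = 4.88e-05) and by 0.90 in b-KC GFP (adjusted p = 0.00929). In b-KC Tom, 0.51 did not pass (adjusted p = 0.102), though it did with only the groups compared (adjusted p = 0.00876). The b-KC GFP call was lost without the filter (adjusted p = 0.0174) and without any 1 of mice 810, 825, 828, 814 and 815 (0.0206 to 0.0870).

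The response of Sat1 was larger in HF-SC than in b-KC by 1.13 for GFP (adjusted p = 0.0433) and 1.20 for Tom (adjusted p = 0.0269), which did not pass. The Tom difference passed with the mouse as a random block (adjusted p = 0.00598) and without mouse 817 (1.48, adjusted p = 0.00108), and the GFP difference with only the groups compared (adjusted p = 0.00902). Set against Odc1 in the same library, Sat1 was 0.994 to 1.66 times Odc1 in HF-SC Co and 3.87 to 5.46 times in HF-SC GFP, without overlap, and 1.74 to 6.12 times in HF-SC Tom. In b-KC, Sat1 was 3.92 to 4.94 times Odc1 in Co against 6.25 to 7.02 times in GFP, again without overlap, and 3.17 to 6.29 times in Tom, which overlapped with Co.

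The comparison of healthy cell types gave the starting point of these changes. Between b-KC Co and HF-SC Co, 4 of 7 genes were higher in b-KC (Ass1, Asl, Srm and Sat1) and Sms was lower, where 19.3% of all tested genes passed as higher and 18.7% as lower. The differences were 1.71 for Ass1 (adjusted p = 3.14e-07), 1.63 for Sat1 (adjusted p = 5.01e-05), 1.34 for Srm (adjusted p = 0.000977), 0.88 for Asl (adjusted p = 0.00199) and -0.55 for Sms (adjusted p = 0.00416). Ass1, Sat1 and Srm, higher in b-KC Co than in HF-SC Co, were thus the 3 genes that rose in HF-SC GFP. These comparisons share the HF-SC Co libraries, so the overlap of names is given without a test. The Asl call was lost without mouse 810 (0.85, adjusted p = 0.0213) or 825 (0.79, adjusted p = 0.0285), the Srm call without 825 (1.25, adjusted p = 0.0171), and the Sms call without 810, 825, 828 or 815 (adjusted p 0.0114 to 0.0715).

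Mutant and non-mutant cells of the same mice were compared next. In the bulge, 0 of 7 passed in limma in either direction (0.902% of all tested genes were higher and 4.09% lower), with 1 at an unadjusted p under 0.05, Sms (0.32, adjusted p = 0.208). In basal keratinocytes, 0 of 7 passed (0.361% of all genes higher, 0.125% lower), with 0 at an unadjusted p under 0.05. The mouse as a random or as a fixed block left 0 passing in both comparisons. For Ass1 the difference between GFP and Tom had 95% confidence intervals of -0.51 to 0.16 in HF-SC and -0.39 to 0.28 in b-KC.

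Around the 8 genes, 52 other genes of the same routes are in the table and 41 were tested. In HF-SC GFP 8 of the 41 were higher (19.5%, against 13.0% of all tested genes) and 5 lower (12.2% against 12.3%). In HF-SC Tom 12 were higher (29.3% against 15.7%) and 7 lower (17.1% against 13.9%). In b-KC GFP 10 were higher (24.4% against 12.5%) and 3 lower (7.32% against 12.0%), and in b-KC Tom 9 were higher (22.0% against 15.4%) and 4 lower (9.76% against 15.3%). The share of lower genes was near that of all genes in HF-SC GFP, and the b-KC shares rest on 3 and 4 lower genes. The median log2 fold changes were -0.10, 0.00, 0.24 and 0.23. Named with values are the 4 largest that passed in each comparison. Members of these lists that are named below without being among those 4 were chosen after their values were seen.

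The list of polyamine breakdown and transport held the largest of these changes on the log2 scale. Smox, spermine oxidase, which turns spermine back into spermidine, measured 3.16, 4.47 and 3.84 FPKM in control bulge cells, 68.1, 72.1 and 57.6 in mutant and 33.9, 26.5 and 41.7 in non-mutant bulge cells. Control basal keratinocytes had 16.5, 21.6 and 13.0 FPKM of Smox, mutant ones 118, 97.9 and 66.1 and non-mutant ones 79.3, 70.8 and 65.5. No diseased library overlapped with Co. Smox rose by 3.80 on the log2 scale in mutant (SE 0.22, adjusted p = 1.43e-08, ratio of means 17.3) and 2.85 in non-mutant bulge cells (adjusted p = 9.87e-08), and by 2.38 and 2.04 in mutant and non-mutant b-KC (adjusted p = 2.14e-06 and 5.54e-06). The GFP response was larger in HF-SC than in b-KC by 1.41 (adjusted p = 0.00729, where 5.21% of all tested genes passed in either direction), and the Tom response had a difference of 0.81 that did not pass (adjusted p = 0.0892). No alternative fit was compared for these differences. Of the 7 tested genes of that list, Paox, the peroxisomal polyamine oxidase that acts on the products of Sat1, also rose in all 4 populations (0.93, 0.93, 0.81 and 0.69), while Slc3a2, the heavy chain of amino acid transporters, rose in both b-KC populations, and Slc18b1 fell in both HF-SC populations and Atp13a2 in both Tom populations. The list thus had 28.6% of its genes higher in each HF-SC population (against 13.0% and 15.7% of all tested genes) and 42.9% in each b-KC population (against 12.5% and 15.4%). Lower were 14.3% in HF-SC GFP (against 12.3%) and 28.6% in HF-SC Tom (against 13.9%). In b-KC, 0% were lower in GFP (against 12.0%) and 14.3% in Tom (against 15.3%).

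Polyamine synthesis and its control, beyond the 8 genes, formed a list of 13 tested genes. Of these, 0 rose and 2 fell in HF-SC GFP (Oaz2, Adi1; 15.4%, against 12.3% of all tested genes), and 0 rose and 3 fell in HF-SC Tom (Oaz2, Adi1, Adc; 23.1% against 13.9%). In each b-KC population 2 rose (Mtap and Enoph1, of methionine salvage) and 2 fell (Oaz2, Myc), 15.4% each way against 12.0% to 15.4% of all tested genes. Myc, the transcription factor known to drive Odc1, measured 168, 191 and 227 FPKM in control b-KC, 48.1, 50.7 and 93.0 in mutant b-KC and 48.8, 56.0 and 93.9 in non-mutant b-KC. It fell by 1.65 on the log2 scale in b-KC GFP (adjusted p = 0.00120) and by 1.59 in b-KC Tom (adjusted p = 0.00114), in which Odc1 did not pass. Both calls for Myc were lost without mouse 828 (adjusted p = 0.0122 and 0.0109) or 815 (0.0253 and 0.0188). Of 4 genes of hypusine, the spermidine-derived residue of eIF5A, Eif5a rose in all 4 populations (0.84, 0.88, 0.72 and 0.74) and Dohh in 3 (0.53, 0.56 and 0.52 in HF-SC GFP, HF-SC Tom and b-KC GFP), where 13.0%, 15.7%, 12.5% and 15.4% of all tested genes were higher in the 4 comparisons. Of 7 genes of ornithine and proline, Oat rose in HF-SC Tom (0.68; 14.3% of the list, near the 15.7% of all tested genes) and 0 passed in the other 3 comparisons.

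Genes of arginine, citrulline and nitric oxide made up another list. Of 10 tested, 4 rose and 2 fell in HF-SC GFP, 7 rose and 2 fell in HF-SC Tom, and 3 rose and 1 fell in each b-KC population. Of all tested genes, 12.5% to 15.7% were higher and 12.0% to 15.3% lower in these comparisons. The 1 of 10 lower in each b-KC population is thus near the share of all genes. Gch1, which makes the first step of tetrahydrobiopterin, the cofactor of nitric oxide synthases, measured 1.48, 1.61 and 1.32 FPKM in control bulge cells, 17.3, 15.2 and 12.8 in mutant and 18.4, 14.7 and 9.04 in non-mutant ones. In basal keratinocytes Gch1 measured 3.82, 3.63 and 3.07 FPKM in controls, 32.1, 34.0 and 16.4 in mutant and 14.8, 15.1 and 9.65 in non-mutant cells, again without overlap with controls. It rose by 2.70, 2.55, 2.60 and 1.64 on the log2 scale (adjusted p = 1.53e-06, 2.17e-06, 5.79e-06 and 0.000175). Ddah1 and Ddah2, which degrade methylarginines that inhibit nitric oxide synthases, went opposite ways in HF-SC. Ddah1 rose by 1.96 in HF-SC Tom (adjusted p = 1.66e-05) and 1.63 in b-KC Tom (adjusted p = 0.000117, and 2.63 with a pseudocount of 0.1), and passed as higher in both GFP populations too (1.36 and 1.18). Ddah2 fell from 40.7, 29.8 and 35.4 FPKM in HF-SC Co to 5.04, 4.40 and 4.15 in HF-SC GFP, by 2.71 on the log2 scale (adjusted p = 1.61e-06), and by 1.68 in HF-SC Tom (adjusted p = 0.000118), and its GFP response differed between the cell types (-2.39, adjusted p = 0.000824), while the difference for Tom did not pass (-0.97, adjusted p = 0.0958). Gamt, which makes creatine from the product of arginine and glycine, fell by 2.33 in HF-SC GFP (adjusted p = 4.21e-07), from 13.8, 11.9 and 13.3 FPKM to 1.61, 1.56 and 2.23, and passed as lower in the other 3 populations. Prmt1, the main arginine methyltransferase, rose by 1.26 in b-KC GFP (adjusted p = 4.32e-05), from 75.6, 69.2 and 69.3 FPKM to 172, 173 and 172, and also in b-KC Tom (1.31), HF-SC GFP (0.92) and HF-SC Tom (1.04).

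Nos3, the endothelial nitric oxide synthase, stood apart. Non-mutant bulge cells had 21.4, 27.3 and 13.4 FPKM, control bulge cells 1.38, 2.25 and 0.896 and mutant bulge cells 0.587, 0.845 and 0.143, and Nos3 did not exceed 0.368 in any b-KC library. It rose by 3.09 in HF-SC Tom (adjusted p = 8.79e-08) and differed between the GFP and Tom fractions of HF-SC (-3.80, adjusted p = 2.98e-08). All 10 endothelial markers were above Co in every HF-SC Tom library and below Co in every HF-SC GFP library. Their part in the Nos3 value was not tested. Slc7a7 and Gatm, 2 further genes of this list and an amino acid transporter subunit and a creatine synthesis enzyme, were also lower in mutant than in non-mutant bulge cells (-1.74 and -1.17). In this comparison 30.0% of the tested genes of the list were lower, against 4.09% of all tested genes. The part of endothelial cells in the Slc7a7 and Gatm values was not tested either.

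**Figure D3:**
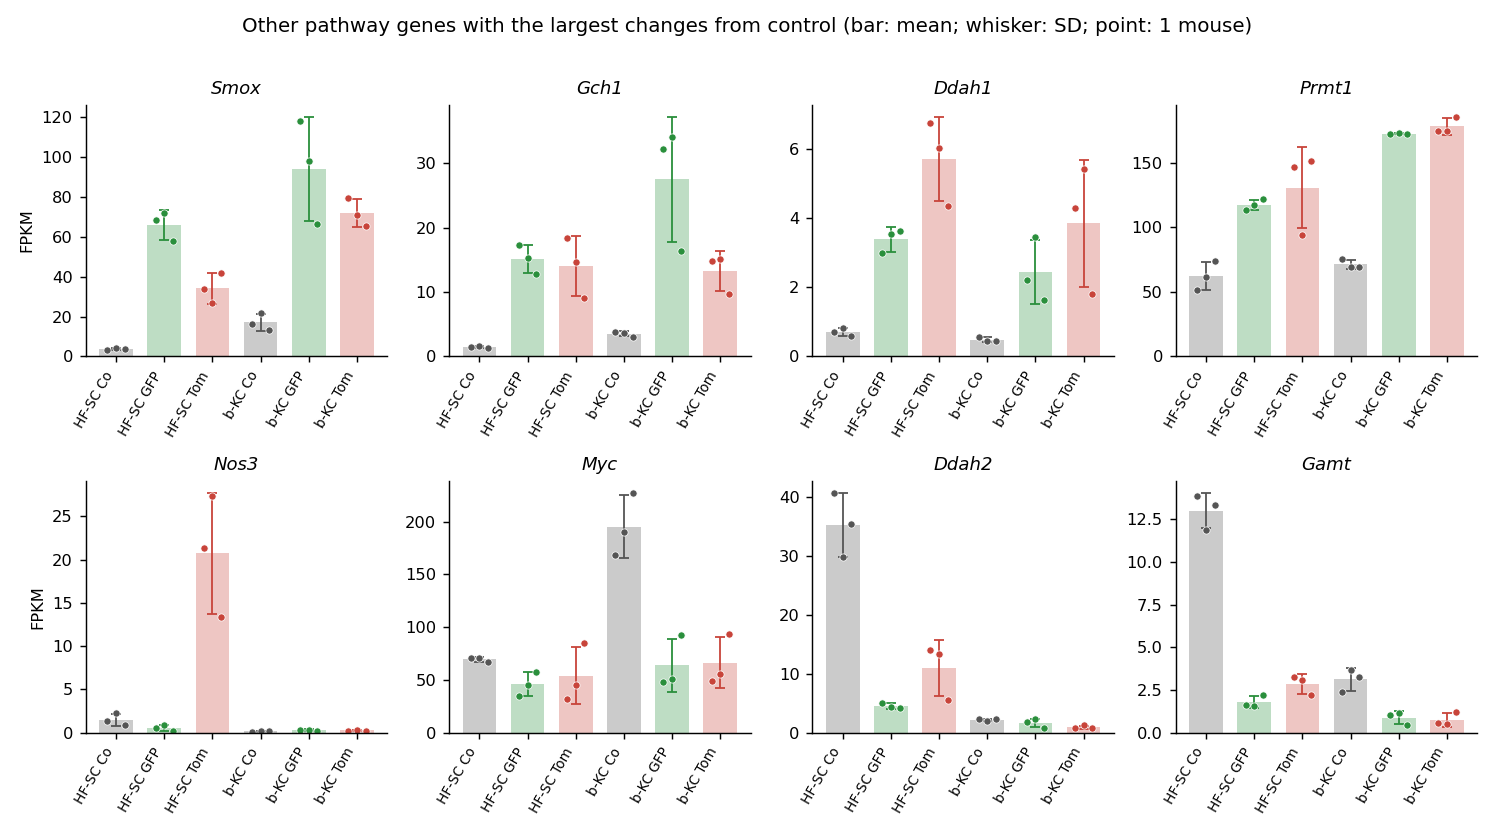
FPKM (linear axes from 0, a separate scale for each gene) of the 8 further pathway genes named with values, with bars for the mean of 3 mice, whiskers for the SD and points for single libraries. Smox reaches 57.6 to 72.1 in HF-SC GFP against 3.16 to 4.47 in HF-SC Co, Nos3 reaches 13.4 to 27.3 in HF-SC Tom and at most 2.25 elsewhere, and Ddah2 is at 29.8 to 40.7 in HF-SC Co.

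The genes whose log2(FPKM + 1) ran most like those of the 2 members with the largest changes that passed were found over the 18 libraries, which share mice and cell types. For Sat1 these were Gm15987 (Pearson r = 0.97), Stk17b (0.96), Rassf6 (0.95), Plbd1 (0.95) and Etf1 (0.95). For Ass1 they were Nme1, Nhp2, Asns, Cdc34 and 2310039H08Rik, each at r = 0.98.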

How the data were processed

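The members and gene lists were chosen with earlier results of these data known. The deposited table holds FPKM per gene symbol and library, made by the authors from 51-base single-end reads of SMART-Seq v4 libraries (4 to 10 ng RNA), without strand. The reads were aligned to mm9 with TopHat 2.0.10 and Bowtie 1.0.0, allowing 2 mismatches and 20 multiple hits, and quantified with Cufflinks 2.2.1. Reads shared by near-identical genes and overlapping genes on the opposite strand therefore cannot be separated. All 18 columns were used. Genes with at least 1 FPKM in 3 libraries (12751) were tested on log2(FPKM + 1) with limma 3.58.1 (R 4.3.3; 6 group means, moderated variances with a trend), over all genes at a Benjamini-Hochberg adjusted p under 0.01. A response comparison is the HF-SC change from Co minus the b-KC change. The procedure was checked on simulated data.

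The implied depth comes from 7151 genes with a single transcript, of whose low values 78.7% to 83.1% lay within 0.1 of a whole read. Libraries' size factors ran from 0.987 to 1.03. All 8 members are named. Some genes are not reported here. Of the other pathway genes, the 4 largest changes that passed in each comparison with Co are named, with the 5 nearest patterns of the 2 members with the largest changes. Mouse numbers pair the samples, since each number is 1 animal, and deviations from group means of same-mouse libraries correlated at r = 0.0838 to 0.700. Alternatives were an adjusted p under 0.05, a limit of 2 on the absolute log2 fold change, a pseudocount of 0.1, no filter, only the groups compared, no variance trend, rescaled libraries, the mouse as a block, and each mouse left out. The same alternative fits for the 16 values by which 8 further pathway genes were named were added after seeing the data. The main fit had 3 mice per group and no term for the mouse. Its p-values treat the 18 libraries as independent, although libraries of the same mouse were correlated.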

Additional observations from a re-analysis of the deposited data

Results flagged for a closer look

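For Sms the change from control differed between the cell types by a test of the difference itself. The response in HF-SC minus that in b-KC was -1.19 on the log2 scale for GFP and -1.35 for Tom (limma adjusted p = 0.00116 and 0.000311). Both differences share the Co libraries and the DKO* mice. The GFP difference did not pass without mouse 810 (limma adjusted p = 0.0145) or 815 (0.0343).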

How the results depend on the processing

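Of 770 values from alternative fits for 63 combinations of gene and comparison, 712 kept their direction and side of the threshold, 25 no longer passed, 12 newly passed and 21 changed sign, 0 of these where either fit passed. The cause was not tested. With a limit of 2 on the absolute log2 fold change, 1 of the genes passed in HF-SC GFP and 0 in HF-SC Tom, b-KC GFP, b-KC Tom, the Co comparison and both responses. At an adjusted p under 0.05, 2 passed in each response. With only the groups compared, 5 passed in b-KC Tom and 2 in the GFP response. With each mouse left out in turn, the number passing was 2 to 4 in HF-SC GFP, HF-SC Tom and b-KC Tom, 2 to 5 in b-KC GFP and between Co groups, 0 in both comparisons of GFP with Tom, 0 to 1 in the GFP response and 1 to 2 in the Tom response. Numbers above those with all mice came without mouse 817. The lowest came without 825, 828 or 815 in HF-SC GFP, HF-SC Tom and b-KC Tom, without any mouse but 817 in b-KC GFP, without 825 between Co groups (3 without 810), and without 810 or 815 in the GFP response. The mouse as a block changed 2 of 77 calls (Srm in b-KC GFP 0.96, adjusted p = 0.00754, and Sat1 in the Tom response, which brought the number passing there to 2) and no other call.

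Signs changed with a mouse left out for Asl in the GFP response (-0.081 to 0.13), the Tom response (-0.12 to 0.10) and HF-SC GFP against Tom (-0.33 to 0.042), for Odc1 in the GFP response (-0.29 to 0.033), the Tom response (-0.19 to 0.045), HF-SC GFP against Tom (-0.14 to 0.0051), b-KC GFP against Tom (-0.35 to 0.25) and the Co comparison (-0.20 to 0.042), for Srm in HF-SC GFP against Tom (-0.083 to 0.29) and the Tom response (-0.074 to 0.24), for Oaz1 in b-KC Tom (-0.0081 to 0.33) and b-KC GFP against Tom (-0.32 to 0.11), and for Ass1 in b-KC GFP against Tom (-0.14 to 0.051). For the 16 largest changes that named 8 further pathway genes, 188 of 192 values from alternative fits had the same direction and side of the threshold, the other 4 being those of Myc. No alternative was compared for the other pathway genes. For Nos2 depth was a limit, since the highest library held about 10.5 implied reads.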
